A study of Mus musculus with 12 samples.

Results

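The levels of 10 genes of the tumour necrosis factor (TNF) and NF-kB response were followed in mouse kidney. The genes were taken by gene symbol from the deposited expression table, in which all 10 of the 10 symbols had 1 row each, of 33188 genes in all. The study measured kidney RNA in 12 libraries of wild-type mice, 4 in each of 3 groups. XZSW was the hyperuricemia model treated with Xin-Zi-Sheng-Wan decoction, a preparation of traditional Chinese medicine. HUA was the model alone, made with potassium oxonate, which inhibits uricase, and hypoxanthine, a purine that is turned into uric acid. CTL was the control group. As the series design text describes a treatment of the model, XZSW is taken to carry the same inducing agents as HUA. No source used here states strain, sex, age, doses or durations. The labels do not state whether each library stands for its own animal, and p-values here reflect only how far these libraries spread, which may be technical.

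TNF is a cytokine made mainly by myeloid cells that signals through 2 receptors, TNFR1 and TNFR2. In unstimulated cells the NF-kB dimers are held in the cytoplasm by IkB proteins. In the canonical route an IkB kinase marks the inhibitor IkB-alpha for breakdown, and dimers with p50 and RelA enter the nucleus. In the non-canonical route, used by lymphotoxin beta receptor and by the TWEAK receptor Fn14, the kinase NIK lets p100 be processed to p52, which works with RelB. NF-kB switches on genes of its own inhibitors, among them IkB-alpha and A20, and genes of adhesion molecules that hold leukocytes at the vessel wall or on injured tubule. TNF and TWEAK are known as promoters of inflammation in the injured kidney.

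Library totals ranged from 51.6 to 74.3 M counts, and 19772 genes had enough counts to be tested. Proximal tubule markers were present in every group, with summed FPKM of 2350 to 2604 in XZSW, 637 to 2015 in HUA and 2517 to 2932 in CTL over 9 genes. FPKM is the number of fragments per kilobase of gene model, scaled to the fragments mapped. Expression leaned to GC-rich genes in 5 libraries, XZSW3, XZSW4, HUA2, HUA3 and HUA4, whose slopes against CTL were 0.227 to 0.367 (log2 per 10% GC). The other 7, among them all of CTL, had slopes of -0.0605 to 0.05. HUA1 was the lone HUA library of low slope, so in HUA against CTL this lean cannot be fully told apart from the group. The longest transcripts of the 10 genes held from 40.1% GC (Vcam1) to 59.4% GC (Nfkb2). Markers of other cells stood as follows in summed FPKM. Neutrophil markers were at 1.02 to 4.45 in XZSW, 1.55 to 18.4 in HUA and 0.513 to 0.929 in CTL, T and NK cell markers were at 2.58 to 9.61 in XZSW, 1.07 to 3.91 in HUA and 2.07 to 4.24 in CTL, and B cell markers below 1 in every group. Fibroblast and pericyte markers were at 14.3 to 45.6 in XZSW, 43.4 to 115.7 in HUA and 17.5 to 21.5 in CTL, and markers of other nephron segments and podocytes at 595.4 to 2120 in XZSW, 867 to 1798 in HUA and 1097 to 1311 in CTL.

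The promoters of 7 of the 10 genes were found in a RefSeq table on GRCm38.p6. It has windows from 250 bases before to 50 bases after a transcription start. Relb, Vcam1 and Nfkb1 are not shown. The windows were searched on both strands for the NF-kB consensus decamer, the 10-base pattern bound by Rel dimers. It was found in Nfkb2, Nfkbia and Tnfaip3, which is 3 of 7 genes (42.9%), against 5.14% of 27025 genes in the table. A gene was counted if any of its windows held the decamer. As the genes were taken for their part in the NF-kB response, this contrast is no independent support. A looser pattern of 3 G, any 5 bases and 2 C was in all 7 and in 53.5% of all genes. The 3 promoters with the decamer are shown because they belong to a subunit that rose in the model and to the 2 feedback inhibitors, whose levels behaved otherwise. Capitals mark the decamers, and letters run 5′ to 3′ on the strand of the gene.
Nfkb2 (GRCm38.p6, chr19:46304487-46304786, plus strand): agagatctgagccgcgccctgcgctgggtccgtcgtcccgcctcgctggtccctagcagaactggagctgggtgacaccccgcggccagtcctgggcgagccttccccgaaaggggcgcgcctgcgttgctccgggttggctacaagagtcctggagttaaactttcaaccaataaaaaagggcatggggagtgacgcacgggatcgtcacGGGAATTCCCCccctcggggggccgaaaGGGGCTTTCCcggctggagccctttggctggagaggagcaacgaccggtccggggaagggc
Nfkbia (GRCm38.p6, chr12:55492598-55492897, minus strand): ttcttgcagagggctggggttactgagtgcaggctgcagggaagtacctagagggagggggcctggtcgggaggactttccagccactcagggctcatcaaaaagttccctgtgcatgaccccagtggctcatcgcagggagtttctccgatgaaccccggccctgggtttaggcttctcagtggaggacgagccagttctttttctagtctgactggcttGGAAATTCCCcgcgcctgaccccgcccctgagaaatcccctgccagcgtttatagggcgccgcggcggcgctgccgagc
Tnfaip3 (GRCm38.p6, chr10:19015361-19015660, minus strand): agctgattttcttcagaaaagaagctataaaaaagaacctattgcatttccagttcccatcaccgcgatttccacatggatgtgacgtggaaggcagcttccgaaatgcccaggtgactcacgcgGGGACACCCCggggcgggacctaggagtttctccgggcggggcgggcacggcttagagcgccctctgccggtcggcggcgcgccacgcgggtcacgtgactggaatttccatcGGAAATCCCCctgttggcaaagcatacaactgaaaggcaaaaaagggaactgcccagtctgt
In this Nfkb2 window 4 matches formed 2 separate stretches. The first holds the palindrome GGGAATTCCC, read on both strands, and an overlapping match shifted by 1 base. The second is GGGGCTTTCC at position -11, counted from the start. Nfkb2 has 2 further windows in the table, at chr19:46305445-46305744 and chr19:46305680-46305979, which share the decamer GGGACTTTCC. Nfkbia has GGGAATTTCC on the opposite strand, and the leftmost base of this match, as printed on the strand of the gene, is at -29. Tnfaip3 has GGGACACCCC on the strand of the gene at -125 and GGGGATTTCC on the opposite strand, with the leftmost base as printed at -12. A match is a description of these letters, and no match says only that they are not in the window.

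In the hyperuricemia model 8 of the 10 genes rose against control, 1 fell and 1 did not pass the test, while 27.8% of all 19772 tested genes changed. A gene is said to rise or fall where its p from edgeR's quasi-likelihood test, adjusted over the 19772 genes by Benjamini and Hochberg's method, was under 0.05. Of all tested genes 14.9% rose and 12.8% fell. The genes that rose were Tnf, Tnfrsf12a, Nfkb1, Nfkb2, Relb, Birc3, Icam1 and Vcam1. For these 8 the lowest HUA library stood above the highest CTL library in FPKM, as it did for 28.7% of all tested genes. For 0 of the 10 was every HUA library below every CTL library, against 6.73% of all tested genes. FPKM does not carry the TMM factors that scale library totals in the test, which were 1.09 to 1.15 in HUA and 0.856 to 0.922 in CTL. In FPKM, HUA therefore stands higher against CTL than in the test. The median log2 change of the 10 genes was 1.81, against 0.06 over all tested genes. All 10 passed the filter on low counts. The 10 genes were chosen with earlier results of these data known, so their share is no independent test against all tested genes.

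**Figure D1:**
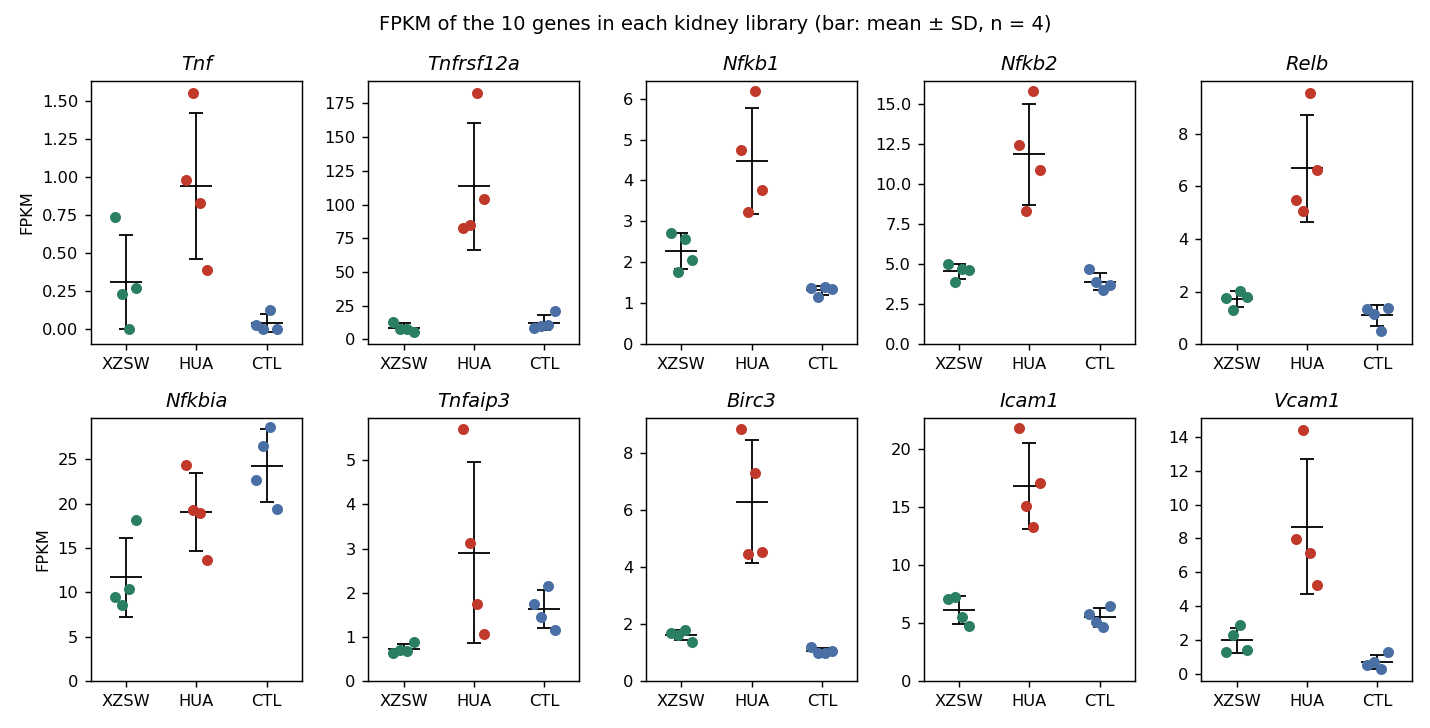
FPKM (vertical axis, from the deposited table) of each of the 10 genes in the 4 libraries of XZSW, HUA and CTL. Points are libraries and bars show mean ± SD. HUA stands apart above CTL for 8 genes, while Nfkbia and Tnfaip3 overlap.

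Tnf was measured on few counts. It stood at 0.739, 0.232, 0 and 0.27 FPKM in XZSW1 to XZSW4, at 0.982, 1.55, 0.832 and 0.391 in HUA1 to HUA4 and at 0.028, 0, 0.124 and 0 in CTL1 to CTL4. These values rest on 149 counts in XZSW, 463 in HUA and 16 in CTL. Every HUA library was above every CTL library, while XZSW spread over both. A count of 0 allows up to 0.0437 CPM (counts scaled to the library total multiplied by its TMM factor) in XZSW3, 0.0595 in CTL2 and 0.0503 in CTL4, taking 3 counts as the limit, which covers counting error only. Tnf rose in HUA against CTL, with a log2 change of 4.23 (SE 1.27, adjusted p = 0.0243). The call was lost without HUA2 (adjusted p = 0.0518), CTL1 (0.0645), CTL2 (0.0609) or CTL4 (0.0561) and with the low GC slope libraries alone (0.0623), and without CTL3, which held 12 of the 16 control counts, the log2 change was 5.87. Against HUA the XZSW value was -1.46 (95% interval -3.79 to 0.87) and against CTL it was 2.77 (0.13 to 5.41), and neither passed (adjusted p = 0.403 and 0.198). Without XZSW1 these values were -2.30 and 1.92.

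Markers of macrophages, the usual source of Tnf, had a higher sum in HUA than in both other groups. The 12 markers summed to 53.3 to 136.5 FPKM in XZSW, 199.7 to 304 in HUA and 27.4 to 53.96 in CTL. XZSW and CTL overlapped, as XZSW2 lay just under CTL4, while their medians were 97.75 and 31.97. In HUA against CTL 10 of 12 rose and 0 fell. In XZSW against HUA 4 fell, 0 rose and 8 did not pass. Cd14, 1 of the 4, averaged 6.72 FPKM in XZSW and 78.4 in HUA, a large part of the change in the sum. In XZSW against CTL 3 rose, 0 fell and 9 did not pass. There 8 were higher and 0 lower at an unadjusted p under 0.05 from edgeR. Fewer cells of a type and less RNA per cell cannot be told apart in bulk RNA. The part of these cells in the Tnf result was not tested.

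Tnfrsf12a encodes Fn14, the receptor of TWEAK, and was the member with the highest level in HUA. It stood at 13.2, 7.86, 8.03 and 5.47 FPKM in XZSW1 to XZSW4, at 82.8, 84.8, 182.7 and 104 in HUA1 to HUA4 and at 8.37, 10.2, 10.5 and 20.8 in CTL1 to CTL4. HUA was apart from both other groups, whose values overlapped. In HUA against CTL it rose 7.16-fold (log2 change 2.84, SE 0.35, adjusted p = 0.000149), and in XZSW against HUA it fell 11.99-fold (log2 change -3.58, SE 0.36, adjusted p = 0.00016). The log2 change of XZSW against CTL was -0.74 (95% interval -1.46 to -0.03, adjusted p = 0.200). Both calls held in every alternative tried. Within the 3 HUA and 2 XZSW libraries of high GC slope it was the 1 member that passed, with a log2 change of -4.10. Its ligand TWEAK, encoded by Tnfsf12 and named here for its role, averaged 7.83 ± 2.30 FPKM in XZSW, 12.3 ± 5.12 in HUA and 5.22 ± 0.32 in CTL (SD, n = 4 each), and rose 1.84-fold in HUA against CTL (adjusted p = 0.0298). Injured tubule markers moved in the direction of Tnfrsf12a in the comparisons with HUA, but not between XZSW and CTL. The 6 genes Havcr1, Lcn2, Krt8, Krt18, Sox9 and Clu summed to 238 to 346 FPKM in XZSW, 1405 to 3822 in HUA and 117 to 144 in CTL. All 6 rose in HUA against CTL and all 6 fell in XZSW against HUA. In XZSW against CTL 3 of the 6 rose and 0 fell. The part of these markers in the Tnfrsf12a result was not tested.

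The 3 NF-kB subunits in the set rose together in HUA. Nfkb1, which encodes p105 and p50, stood at 2.73, 1.76, 2.56 and 2.05 FPKM in XZSW1 to XZSW4, at 4.76, 3.23, 6.18 and 3.76 in HUA1 to HUA4 and at 1.39, 1.16, 1.40 and 1.34 in CTL1 to CTL4. The 3 groups were apart, with XZSW between HUA and CTL. Nfkb1 rose 2.65-fold in HUA against CTL (log2 change 1.41, SE 0.19, adjusted p = 0.000236) and fell 1.81-fold in XZSW against HUA (log2 change -0.86, SE 0.18, adjusted p = 0.00851). Although all XZSW libraries were above all CTL libraries, as for 19.2% of tested genes, the log2 change of 0.55 did not pass (95% interval 0.15 to 0.94, adjusted p = 0.0947).

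Nfkb2 encodes p100, the precursor of p52. Its FPKM was 4.999, 3.91, 4.68 and 4.62 in XZSW1 to XZSW4, 12.4, 8.34, 15.8 and 10.9 in HUA1 to HUA4 and 4.69, 3.86, 3.41 and 3.70 in CTL1 to CTL4. HUA was apart above the other groups, and XZSW and CTL overlapped. Nfkb2 rose 2.37-fold in HUA against CTL (log2 change 1.24, SE 0.18, adjusted p = 0.000395) and fell 2.39-fold in XZSW against HUA (log2 change -1.26, SE 0.18, adjusted p = 0.00111). For XZSW against CTL the log2 change was -0.02, with a 95% interval of -0.39 to 0.36. Relb, the partner of p52, stood at 1.77, 1.30, 2.02 and 1.80 FPKM in XZSW1 to XZSW4, at 5.48, 5.05, 9.54 and 6.63 in HUA1 to HUA4 and at 1.33, 1.15, 0.516 and 1.39 in CTL1 to CTL4. Its HUA values were apart from both other groups. Relb rose 4.70-fold in HUA against CTL (log2 change 2.23, SE 0.29, adjusted p = 0.000216) and fell 3.55-fold in XZSW against HUA (log2 change -1.83, SE 0.29, adjusted p = 0.00182). The value for XZSW against CTL was 0.40 on the log2 scale (95% interval -0.20 to 1.01). Of the 3 subunits HUA3 was the highest library and HUA2 the lowest in the model group.

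Nfkbia and Tnfaip3, the genes of the feedback inhibitors IkB-alpha and A20, did not rise with the subunits. Nfkbia was the highest of the 10 genes in CTL. It stood at 9.49, 8.57, 10.4 and 18.2 FPKM in XZSW1 to XZSW4, at 24.3, 19.2, 18.98 and 13.6 in HUA1 to HUA4 and at 22.7, 26.5, 28.6 and 19.4 in CTL1 to CTL4. HUA overlapped with CTL, and XZSW4 reached into HUA, while all XZSW libraries were below all CTL libraries. In HUA against CTL Nfkbia fell 1.63-fold (log2 change -0.70, SE 0.24, adjusted p = 0.0414). That call was lost in 14 of 19 alternatives, among them the fit with a replicate block (adjusted p = 0.0762), library-total scaling (log2 change -0.37, adjusted p = 0.238) and the omission of HUA2, HUA3, HUA4, CTL1, CTL2 or CTL3 (adjusted p = 0.0691 to 0.124). In XZSW against HUA the log2 change was -0.59 (95% interval -1.11 to -0.08, adjusted p = 0.112). It passed in 5 of 20 alternatives, which were library totals, limma at either pseudocount, the low GC slope libraries alone and the omission of XZSW4 (adjusted p = 0.0139 to 0.0498). In XZSW against CTL Nfkbia fell 2.46-fold (log2 change -1.30, SE 0.24, adjusted p = 0.0157), a call lost without XZSW3 (adjusted p = 0.0527), CTL2 (0.0556) or CTL3 (0.054).

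Tnfaip3 encodes A20, an enzyme that edits ubiquitin chains on the TNF receptor complex. Its FPKM was 0.63, 0.702, 0.676 and 0.89 in XZSW1 to XZSW4, 5.71, 3.13, 1.74 and 1.06 in HUA1 to HUA4 and 1.74, 1.45, 2.16 and 1.16 in CTL1 to CTL4. The HUA libraries spread widely and overlapped with CTL, with HUA1 and HUA2 above all controls and HUA4 below them. The XZSW libraries were tight and below every library of both other groups. The log2 change of HUA against CTL was 0.50 (95% interval -0.37 to 1.36, adjusted p = 0.393) and -0.03 without HUA1. With the low GC slope libraries alone, where HUA1 is the lone HUA sample and is assumed to vary like the others, it was 1.48 (adjusted p = 0.00726). Between XZSW and HUA, Tnfaip3 fell 3.70-fold (log2 change -1.89, SE 0.41, adjusted p = 0.00985). Against CTL its log2 change was -1.39 (95% interval -2.27 to -0.51) and did not pass (adjusted p = 0.0668), although DESeq2 gave an adjusted p of 0.0104.

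**Figure D2:**
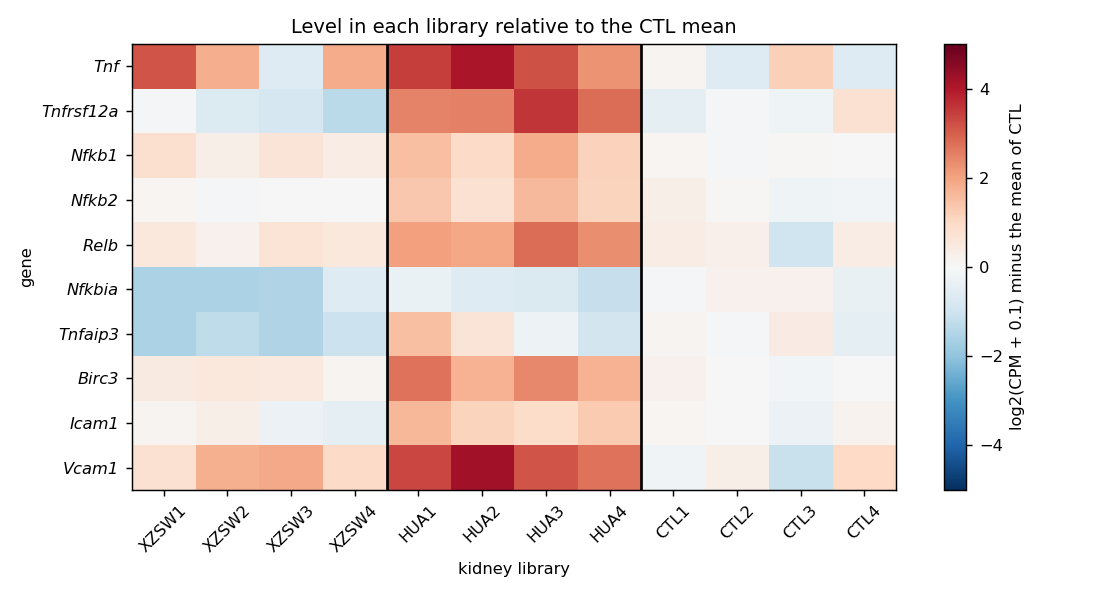
Level of each gene in each library as log2(CPM + 0.1) minus the mean of CTL, in colour, with XZSW, HUA and CTL from left to right. Nfkbia stands between -1.59 and -0.658 in XZSW and between -1.17 and -0.317 in HUA, while Vcam1 stands between 2.72 and 4.19 in HUA.

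Birc3, which encodes the ubiquitin ligase cIAP2, a survival factor at the TNF receptor, stood at 1.70, 1.62, 1.78 and 1.38 FPKM in XZSW1 to XZSW4, at 8.83, 4.44, 7.29 and 4.53 in HUA1 to HUA4 and at 1.19, 0.975, 0.97 and 1.06 in CTL1 to CTL4. In FPKM all 3 groups were apart, while in CPM scaled by TMM XZSW4 (7.37) was below CTL1 (7.66). Birc3 rose 4.67-fold in HUA against CTL (log2 change 2.22, SE 0.22, adjusted p = 4.37e-05), the smallest p of the 10 genes, and fell 3.54-fold in XZSW against HUA (log2 change -1.82, SE 0.22, adjusted p = 0.00047). The log2 change of XZSW against CTL was 0.40 (95% interval -0.07 to 0.86, adjusted p = 0.289).

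The adhesion molecules rose by unlike amounts. Icam1 encodes a ligand of the leukocyte integrins LFA-1 and Mac-1. It stood at 7.03, 7.24, 5.47 and 4.71 FPKM in XZSW1 to XZSW4, at 21.8, 15.04, 13.3 and 17.04 in HUA1 to HUA4 and at 5.77, 5.07, 4.61 and 6.43 in CTL1 to CTL4. HUA was apart, and XZSW and CTL overlapped. Icam1 rose 2.41-fold in HUA against CTL (log2 change 1.27, SE 0.20, adjusted p = 0.000701) and fell 2.51-fold in XZSW against HUA (log2 change -1.33, SE 0.20, adjusted p = 0.00155). Between XZSW and CTL, the log2 change was -0.06 (95% interval -0.48 to 0.37).

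Vcam1 encodes the ligand of the integrin VLA-4. Its FPKM was 1.27, 2.30, 2.88 and 1.43 in XZSW1 to XZSW4, 7.97, 14.4, 7.16 and 5.27 in HUA1 to HUA4 and 0.542, 0.723, 0.285 and 1.275 in CTL1 to CTL4. HUA was apart from both other groups, and the lowest XZSW library lay just under the highest CTL library, so these groups overlapped. Vcam1 rose 9.65-fold in HUA against CTL (log2 change 3.27, SE 0.46, adjusted p = 0.000329) and fell 4.05-fold in XZSW against HUA (log2 change -2.02, SE 0.43, adjusted p = 0.00868). The XZSW value against CTL was 1.25 (95% interval 0.33 to 2.17, adjusted p = 0.101), and DESeq2 gave an adjusted p of 0.0259. Endothelial cells express both adhesion genes, and 9 endothelial markers are given beside them. They summed to 42.9 to 90.3 FPKM in XZSW, 29.98 to 81.3 in HUA and 37.5 to 57.9 in CTL. In HUA against CTL 1 of 9 fell and the other 8 did not pass. In XZSW against HUA 2 of these markers rose, 0 fell and 7 did not pass. None of the 9 passed in XZSW against CTL. Their part in the result was not tested.

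The comparison of XZSW with HUA asks what the decoction did to the model. Of the 10 genes 8 fell, none rose and 2, Tnf and Nfkbia, did not pass, while 15.4% of all tested genes changed, 8.34% downward and 7.09% upward. All 4 XZSW libraries were below all 4 HUA libraries in FPKM for these 8, as for 12.6% of all tested genes, and 0 of the 10 had the reverse, against 6.27%. The median log2 change of the 10 was -1.64, against 0.01 over all tested genes. Here too the choice of the 10 genes with earlier results known limits the comparison with all tested genes. No member was higher at an unadjusted p under 0.05, and DESeq2 too called 8 lower and 0 higher. Log2 changes were negative for all 10 genes within the low GC slope libraries (1 HUA and 2 XZSW, -2.92 to -0.86) and within the high GC slope libraries (3 HUA and 2 XZSW, -4.10 to -0.18), where 7 and 1 of them passed. In the 5 libraries of high GC slope 41 genes passed in the whole table. The comparisons of XZSW with HUA and of HUA with CTL share the HUA libraries, so their directions are not independent.

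Between XZSW and CTL 1 of the 10 genes fell, Nfkbia, none rose and 9 did not pass, while 4.99% of all tested genes changed, 2.27% downward and 2.72% upward. At an unadjusted p under 0.05 3 members were higher and 3 lower, and DESeq2 called 2 higher and 2 lower. In FPKM, library values were apart upward for 2 members, Nfkb1 and Birc3, against 19.2% of all tested genes. They were apart downward for 2, Nfkbia and Tnfaip3, against 4.01%. FPKM does not carry the TMM factors, which were 0.856 to 0.922 in CTL, 0.918 to 1.05 in XZSW and 1.09 to 1.15 in HUA. In CPM scaled by them Birc3 overlapped between XZSW and CTL. The log2 changes ran from -1.39 for Tnfaip3 to 2.77 for Tnf, with a median of 0.19. A p that missed the threshold does not show that these genes were at control level.

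**Figure D3:**
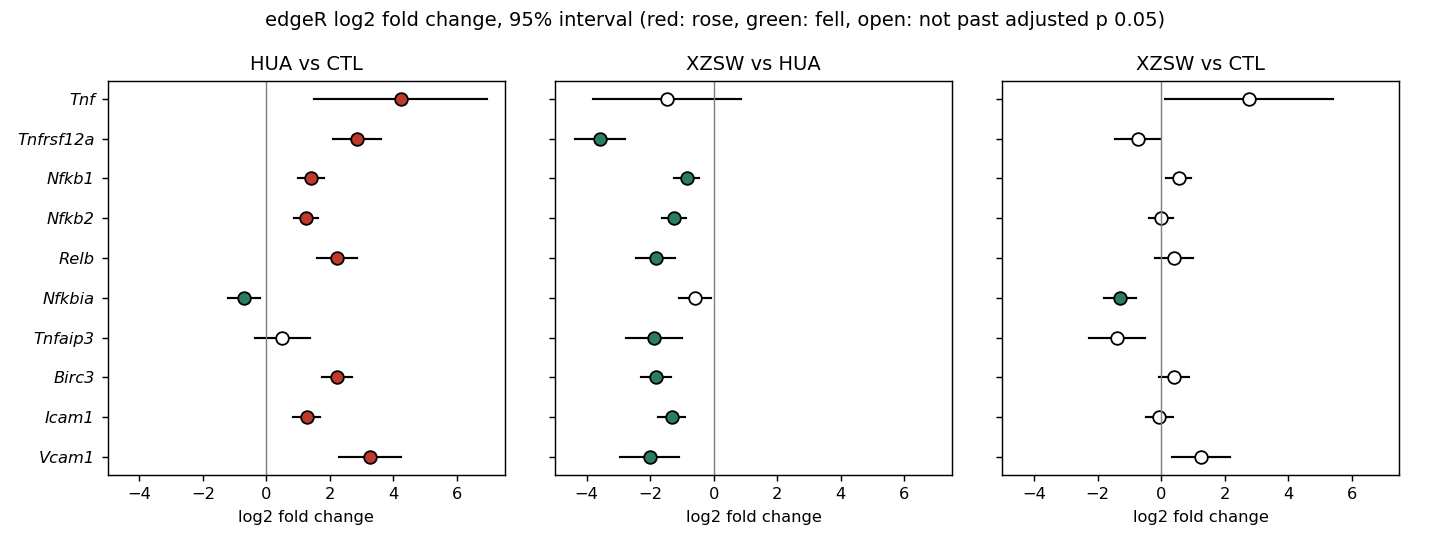
Log2 fold change from edgeR (horizontal axis) of the 10 genes in the 3 comparisons. Circles are estimates, lines are 95% intervals, and filled circles passed the adjusted p threshold of 0.05. In HUA against CTL 8 genes lie right of 0 and pass, and in XZSW against HUA 8 lie left of 0 and pass.

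In CTL the order of levels, compared per length as FPKM, was Nfkbia (24.3 ± 4.08), Tnfrsf12a (12.5 ± 5.62), Icam1 (5.47 ± 0.80), Nfkb2 (3.91 ± 0.55), Tnfaip3 (1.63 ± 0.42), Nfkb1 (1.32 ± 0.11), Relb (1.10 ± 0.40), Birc3 (1.05 ± 0.10), Vcam1 (0.706 ± 0.42) and Tnf (0.038 ± 0.059, SD, n = 4). Library values overlapped between Nfkbia and Tnfrsf12a, between Icam1 and Nfkb2, and between each pair of neighbours from Tnfaip3 to Vcam1. In HUA Tnfrsf12a led at 113.6 ± 47.05 FPKM, followed by Nfkbia at 19.04 ± 4.37 and Icam1 at 16.8 ± 3.69, which overlapped, and Tnf was still the lowest at 0.939 ± 0.479. In HUA the coefficient of variation was 22% for Icam1 and 70.7% for Tnfaip3, the lowest and highest of the 10, and in XZSW it was 10.05% for Nfkb2 and 99.9% for Tnf.

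How the genes resembled each other over the 12 libraries was measured as the root mean square difference of log2 CPM, each centred on its own mean. The most alike members were Nfkb1 and Nfkb2, at 0.271 log2 units, then Nfkb2 and Icam1 at 0.341 and Relb and Birc3 at 0.428. Tnf and Nfkbia were the least alike, at 2.52. Among the other tested genes that averaged 1 FPKM or more, the nearest to Icam1 were Stat3 (0.176), a transcription factor activated by the interleukin-6 family, and Mcl1 (0.225), a survival factor of the BCL2 family. Nearest to Nfkb2 were Ifngr1 (0.16), a chain of the interferon gamma receptor, and Chmp4c (0.16). Nearest to Tnfaip3 were Dusp4 (0.442), a phosphatase of MAP kinases, and Zfp36 (0.461), which encodes the RNA-binding protein tristetraprolin. Nearest to Tnfrsf12a were Ppm1j (0.461) and Fga (0.501), the fibrinogen alpha chain. For the other members the nearest were Capn5 (0.139) for Nfkb1, Litaf (0.276) for Relb, Sbno2 (0.214) for Birc3, Ppic (0.243) for Nfkbia, Trpv6 (0.585) for Vcam1 and Lypd3 (1.16) for Tnf. Libraries share scaling and group structure, so these distances describe likeness of pattern only.

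Other genes of the pathway were followed in 7 lists, chosen by role but with earlier results of these data known. The counts in these lists are thus no independent test against all tested genes. Beside the counts stand the shares of all tested genes, of which 14.9% rose and 12.8% fell in HUA against CTL, 7.09% rose and 8.34% fell in XZSW against HUA, and 2.72% rose and 2.27% fell in XZSW against CTL. In HUA against CTL, of 7 other NF-kB and IkB family genes 5 rose, none fell and 2 did not pass, with a median log2 change of 1.28. By DESeq2 the numbers were the same, and at an unadjusted p under 0.05 6 were higher and 0 lower. Nfkbiz, an atypical nuclear IkB protein, averaged 3.06 ± 0.59 FPKM in XZSW, 16.8 ± 4.72 in HUA and 1.57 ± 0.29 in CTL (SD, n = 4 each), and rose 8.36-fold in HUA against CTL (adjusted p = 7.0e-06). Nfkbie, which encodes IkB-epsilon, averaged 1.95 ± 0.27 FPKM in XZSW, 5.66 ± 1.84 in HUA and 0.957 ± 0.157 in CTL, and rose 4.63-fold in HUA against CTL. Rela, the p65 subunit, averaged 11.6 ± 0.81 FPKM in XZSW, 26.6 ± 5.32 in HUA and 8.97 ± 0.89 in CTL, and rose 2.32-fold in HUA against CTL. For XZSW against HUA, 4 of the 7 fell and none rose, among them Nfkbiz (4.99-fold) and Rela (2.10-fold), and DESeq2 also called 4 lower and 0 higher. For XZSW against CTL, none of the 7 passed by edgeR, 2 were higher and 1 lower at an unadjusted p under 0.05, and DESeq2 called 2 higher.

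Of 27 tested NF-kB target genes 15 rose in HUA against CTL, 3 fell and 9 did not pass, with a median log2 change of 1.5. Csf1, the growth factor of macrophages, averaged 1.54 ± 0.19 FPKM in XZSW, 10.3 ± 5.23 in HUA and 0.564 ± 0.065 in CTL, and rose 14.1-fold in HUA. Irf1, a transcription factor of interferon responses, rose 3.31-fold and Lcn2 rose 224-fold. Between XZSW and HUA, 10 of the 27 fell and 2 rose, with Csf1 down 6.05-fold and the injury marker Lcn2 down 30.8-fold. Between XZSW and CTL, 4 rose and 2 fell, with Csf1 up 2.33-fold and Lcn2 up 7.29-fold (edgeR adjusted p = 0.0258 and 0.0249). These 6 calls went to 0 without XZSW1, CTL1, CTL2 or CTL3, to 1 without XZSW3 or CTL4, and to 3 without XZSW4.

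Among 21 tested receptors of the TNF superfamily 8 rose in HUA against CTL, none fell and 13 did not pass, with a median log2 change of 0.99. At an unadjusted p under 0.05 9 were higher and 1 lower, and DESeq2 called 8 higher and 1 lower. Tnfrsf1a, which encodes TNFR1, averaged 16.4 ± 3.29 FPKM in XZSW, 36.2 ± 9.38 in HUA and 10.7 ± 0.91 in CTL, and rose 2.65-fold in HUA against CTL (adjusted p = 0.00018). Tnfrsf1b, which encodes TNFR2, averaged 1.02 ± 0.30 FPKM in XZSW, 3.28 ± 1.48 in HUA and 0.671 ± 0.12 in CTL, and rose 3.79-fold in HUA against CTL. Eda2r, the ectodysplasin A2 receptor, rose 12.8-fold, though it stood below 1.21 FPKM in every library. In XZSW against HUA 6 receptors fell and 1 rose, with Tnfrsf1a down 2.04-fold and Eda2r down 4.84-fold. Without HUA3, HUA4, XZSW2, XZSW3 or XZSW4 the receptors that passed were 4 lower and 0 higher. In XZSW against CTL 2 rose, Tnfrsf25 (4.70-fold) and Eda2r (2.65-fold), and 0 fell, with 5 higher and 0 lower at an unadjusted p under 0.05 and 3 higher and 0 lower by DESeq2. No receptor passed this comparison without XZSW1, XZSW3, CTL1, CTL2 or CTL3, and 1 passed without XZSW2, XZSW4 or CTL4.

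Of 12 tested ligands 3 rose and 1 fell in HUA against CTL, while without HUA3 1 rose and 1 fell and without CTL4 5 rose and 1 fell. Ltb, which encodes lymphotoxin beta, averaged 0.934 ± 0.46 FPKM in XZSW, 1.53 ± 0.47 in HUA and 0.162 ± 0.053 in CTL, and rose 7.03-fold in HUA against CTL and 4.65-fold in XZSW against CTL (adjusted p = 0.000548 and 0.0159). Without CTL2 or CTL3 no ligand passed in XZSW against CTL. Tnfsf15, which encodes TL1A, rose 4.81-fold in HUA. Tnfsf10, which encodes TRAIL, fell 2.25-fold in HUA against CTL and rose 2.43-fold in XZSW against HUA, where it was the 1 ligand that passed. Its level was 9.72 ± 2.67 FPKM in XZSW, 4.33 ± 1.59 in HUA and 7.65 ± 2.43 in CTL. In the 2 comparisons with XZSW 1 ligand each rose and 0 fell by edgeR, while at an unadjusted p under 0.05 1 was lower against HUA and 0 against CTL, and DESeq2 called 1 and 0 lower. Against HUA 3 ligands passed without HUA1 and 2 without XZSW1.

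Of 24 adaptors and kinases 7 rose and 1 fell in HUA against CTL, with a median log2 change of 0.13. Map3k14, which encodes NIK, the kinase of the non-canonical route, averaged 1.54 ± 0.18 FPKM in XZSW, 4.85 ± 1.73 in HUA and 1.2 ± 0.13 in CTL. It rose 3.17-fold in HUA against CTL and fell 2.88-fold in XZSW against HUA (edgeR adjusted p = 0.000397 and 0.00173). Traf2 and Birc2, whose proteins hold NIK down, rose 1.80-fold and 1.73-fold in HUA. Between XZSW and HUA, 2 of 24 fell, Map3k14 and Birc2 (1.49-fold), and 0 rose, close to the 8.34% of all tested genes that fell, with 1 higher and 3 lower both at an unadjusted p under 0.05 and by DESeq2. The count was 1 without HUA3, XZSW1, XZSW3 or XZSW4. Between XZSW and CTL, 1 rose, Traf1 (2.14-fold), and 0 fell, where at an unadjusted p under 0.05 6 were higher and 1 lower and DESeq2 called 3 and 1. None was higher in 7 of 8 fits that left out 1 library, the exception being that without XZSW4, and without XZSW2 1 was lower.

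Of 12 inhibitors of NF-kB signalling 3 rose and 1 fell in HUA against CTL, with a median log2 change of 0.42. Tnip2, which encodes a partner of A20, rose 2.22-fold, Tnip1 rose 1.48-fold and Tax1bp1 fell 1.56-fold. For XZSW against HUA, 1 fell, Otud7b (1.56-fold), and 0 rose, with 5 lower and 0 higher at an unadjusted p under 0.05 and 4 lower and 0 higher by DESeq2. That share was close to the 8.34% of all tested genes that fell, and the count was 0 without XZSW2 or XZSW3, 2 without HUA2 or HUA3 and 3 without HUA4. Zfp36 was at 15.6 ± 10.3 FPKM in XZSW, 47.2 ± 36 in HUA and 31.95 ± 1.10 in CTL, and its log2 change of -1.5 in XZSW against HUA did not pass (adjusted p = 0.0575). For XZSW against CTL, edgeR called 0 of the 12, with 1 higher and 4 lower at an unadjusted p under 0.05 and 0 higher and 3 lower by DESeq2.

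Of 12 tested adhesion partners of leukocytes and endothelium 5 rose in HUA against CTL and 0 fell, with 7 higher and 0 lower at an unadjusted p under 0.05 and 6 higher and 0 lower by DESeq2. Itgam, the alpha chain of Mac-1 that binds ICAM-1, averaged 0.659 ± 0.273 FPKM in XZSW, 1.45 ± 0.92 in HUA and 0.0658 ± 0.0278 in CTL. It rose 16.9-fold in HUA against CTL and 8.34-fold in XZSW against CTL (edgeR adjusted p = 0.000432 and 0.0158), and without CTL2 or CTL3 no gene of the list passed in XZSW against CTL. Itgam is also a gene of macrophages and neutrophils. Selp, which encodes P-selectin, had 71 counts in XZSW, 244 in HUA and 0 in CTL. With a floor of 3 counts over the group it was at least 56.7-fold higher in HUA (adjusted p = 0.00526). XZSW, with 1 library at 0, did not pass against CTL (edgeR adjusted p = 0.0513). F11r, the junctional adhesion molecule A, rose 1.44-fold in HUA. Between XZSW and HUA, 1 of the 12 fell, Itgb1, the beta chain of VLA-4 (1.998-fold), and 0 rose, with the same numbers at an unadjusted p under 0.05 and by DESeq2. That share too was close to the 8.34% of all tested genes, and the count was 2 without HUA4. Between XZSW and CTL, 1 rose, Itgam, and 0 fell, with 4 higher and 0 lower at an unadjusted p under 0.05 and 3 higher and 0 lower by DESeq2, and the count was 2 without XZSW2 or XZSW4. Itga4, the alpha chain of VLA-4, is named here for that role and did not pass in any comparison (adjusted p = 0.0719 to 0.474).

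**Figure D4:**
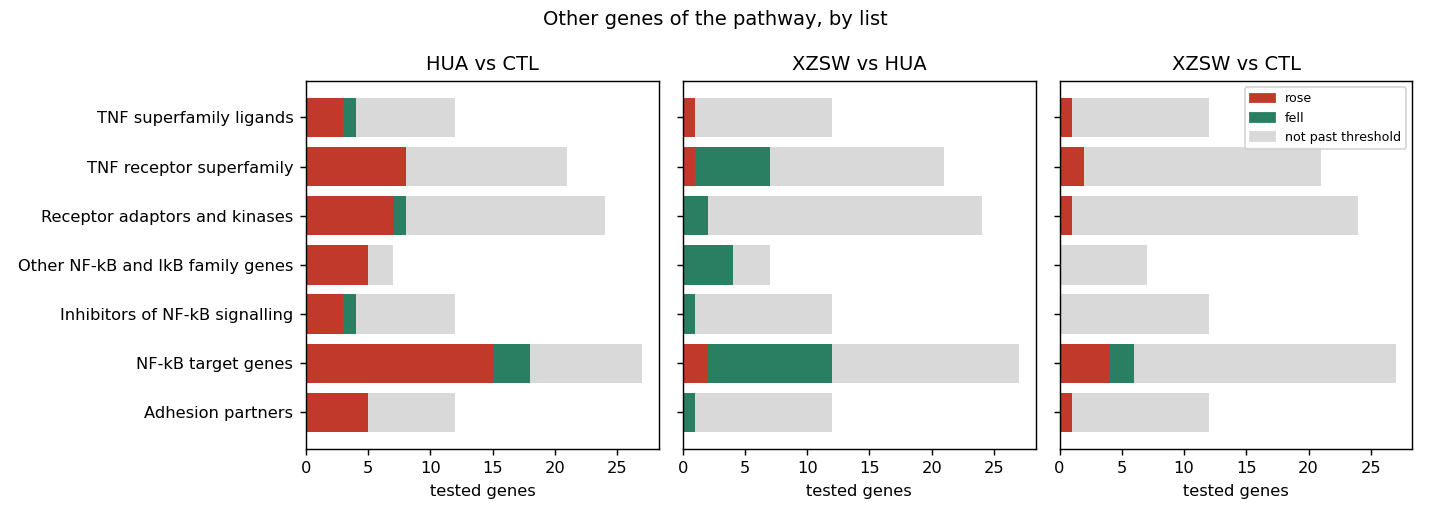
Number of tested genes (horizontal axis) in each of the 7 pathway lists that rose, fell or did not pass edgeR's test, in each comparison. In HUA against CTL 5 of 7 other NF-kB and IkB family genes and 15 of 27 target genes rose.

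The genes lie on 7 chromosomes of GRCm38 in the deposited table. Tnf (ENSMUSG00000024401, 35199381 to 35202007, minus strand) and Tnfrsf12a (ENSMUSG00000023905, 23675445 to 23677468, minus strand) are both on chromosome 17. Birc3 and Icam1 are on chromosome 9 and Nfkb1 and Vcam1 on chromosome 3, and the other 4 are on chromosomes 7, 10, 12 and 19. Nfkb2 overlaps Psd and 4833438C02Rik on the opposite strand, while Nfkb2 itself had 5948 counts in XZSW, 16613 in HUA and 4817 in CTL. The libraries were strand-specific, but whether counting used the strand is not given in the sources used here, so reads of these genes may not be separated.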

How the data were processed

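RNA of 12 kidney samples was sequenced as strand-specific libraries, per the labels' protocols. The submitters' processing notes name cutadapt 1.9, HISAT2 2.2.1 and the build GRCm38, and no source used here names the counting tool. What the authors deposited is a table of 33188 genes with counts and FPKM for each library. Its columns C, N and M were matched to CTL, HUA and XZSW through the sample descriptions. The deposited counts were tested with edgeR 4.0.16 (R 4.3.3; TMM scaling, filter on low counts, quasi-likelihood test, 1 fit over 12 libraries, Benjamini-Hochberg adjustment), which was tested on simulated data. Intervals are 95%. The deposited FPKM values serve to show levels. Alternatives used DESeq2 1.42.0, limma 3.58.1 on log2(FPKM + 1) or log2(FPKM + 0.1), other scalings, no filter, a replicate block, a GC term and omission of each library. The rule named, in each list, the genes with the 3 smallest p in HUA against CTL and the 2 smallest in each other comparison. By that rule Tnfsf9, Rnf31 and Cyld belong too, with log2 changes of 3.11, 0.49 and -0.54 in XZSW against CTL. None of them passed there (edgeR adjusted p = 0.116, 0.0656 and 0.0703). The GC classes, split at a slope of 0.15, and their alternatives were chosen after seeing the data. GC content came from GENCODE transcripts. The members and lists were chosen with earlier results of these data known.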

Additional observations from a re-analysis of the deposited data

Results flagged for a closer look

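Tnfrsf12a stood at 20.8 FPKM in CTL4, above the other 3 control libraries, which stood at 8.37 to 10.5. The gap to the nearest library was 0.831 of the range of the group. Of the 30 combinations of gene and group examined this was the 1 that stood out, and chance gives about 1 in 20.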

How the results depend on the processing

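Of the 10 genes, 9 passed in HUA against CTL and 7 to 9 under all 19 alternatives. In XZSW against HUA 8 passed, 8 to 9 with 1 library left out, 7 to 10 under the other alternatives (10 with limma on log2(FPKM + 1), where Tnf and Nfkbia passed too), except for 1 among the high GC slope libraries alone, where fewer samples were tested. In XZSW against CTL 1 passed, 0 to 1 with 1 library left out, 2 with library totals and with limma on log2(FPKM + 0.1), 4 with DESeq2, and 3 with the 8 samples of the comparison or the low GC slope libraries alone. With a replicate block 8, 8 and 1 of the 10 genes passed, and 5466, 3076 and 813 genes in all. The same-number correlations ran from -0.0457 to 0.174, so the numbers were not taken to pair samples. Over all genes 3051 passed in XZSW against HUA, 1439 with the 8 samples alone, 41 with the high GC slope libraries and 1711 to 3817 with 1 library left out. In XZSW against CTL 987 passed, 529 without a filter, 2417 with DESeq2, 1744 with limma on log2(FPKM + 0.1), 2625 with the 8 samples, 1750 with the GC term, 2841 with the low GC slope libraries and 133 to 699 with 1 library left out. Library totals moved the median log2 change by 0.329, -0.17 and 0.159 in HUA against CTL, in XZSW against HUA and between XZSW and CTL, and the numbers up and down to 5779 and 1320, 836 and 2714, and 1221 and 224, against 2950 and 2538, 1402 and 1649, and 538 and 449. Tnfaip3 in HUA against CTL turned to -0.0343 without HUA1 and reached 0.802 without HUA4. In XZSW against CTL, where neither passed, Nfkb2 turned to 0.15 with library totals, 0.0255 without a filter, 0.18 and 0.22 with limma at pseudocounts of 1 and 0.1, 0.0152 with the GC term, 0.0176 with the low GC slope libraries, and ran from -0.0891 to 0.0868 with 1 library left out. Icam1 turned to 0.0892 with library totals, 0.13 and 0.15 with limma, 0.20 with the GC term and 0.23 with the low GC slope libraries, and ran from -0.196 to 0.0583 with 1 library left out. The causes were not tested. The low depth of Tnf limits its values.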
